A study of Homo sapiens with 6 samples.

Results

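MDM2, GDF15, RPS27L, ACER2 and CYFIP2 are 5 targets of the transcription factor p53 whose known roles lie outside cell cycle arrest. They were taken by gene symbol from the deposited expression table, which held all 5 among its 1305 genes. The samples were NCI-H292 cells, a human line established from a lung cancer, in 2 groups that differed in treatment alone. The control group received DMSO, the solvent, diluted 1 in 1000, and the treated group received 50 nM mitoxantrone, both for 48 hours, with 3 libraries per group. Mitoxantrone, an anthracenedione used in chemotherapy, stabilises type II topoisomerase on cut DNA, and the series title sets the comparison in a study of senescence. The labels do not say whether the 3 libraries of a group came from separate cultures, and p-values therefore reflect the spread among these samples alone, which may be technical.

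DNA breaks activate kinases that free p53 from its main inhibitor, the ubiquitin ligase MDM2, and p53 then binds DNA and raises the transcription of its targets. Best known among these is CDKN1A, the gene for the inhibitor p21, but the programme also holds an inhibitory loop through MDM2, secreted proteins, and enzymes of lipid, carbon and DNA metabolism. The response of p53 targets to a DNA-damaging drug is a common reading of whether the pathway works in a cell line.

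The 6 libraries held 14762544 to 17817782 reads assigned to genes. The table is the authors' selection of changed genes, none with a log2 fold change under 1.0 in size by the authors' own values, so that the calls below are not independent of that selection. Genes outside the table were not analysed here. Of 12 lung epithelial markers 3 were in the table, and the cytokeratin genes KRT8 and KRT18 stood at means of 31927 and 20891 normalized counts with DMSO and rose with mitoxantrone, by 1.48 and 1.19 on the log2 scale, while ELF3, an epithelial transcription factor, fell by 1.28. Of 13 mesenchymal and blood cell markers only COL1A1 was in the table, and it fell by 1.30 on the log2 scale. The part of these marker changes in the results was not tested. DMSO replicate 2 and mitoxantrone replicate 1 stood apart from the other libraries of their groups in a way that followed gene length. Over 653 listed genes at or above the median level, a gene's deviation was correlated with its gene length in the table. The Spearman correlation was -0.57 for the former library and -0.46 for the latter, a description over genes that share these libraries. Results for the 5 genes are therefore given with and without these 2 libraries.

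The p53 binding motif is a run of 20 bases made of a pair of like decamers, and it was looked for in the 250 bases before each RefSeq gene start (GRCh38.p14), on both strands, with no spacer and at most 3 mismatches. All 5 genes had at least 1 window of 250 bases to search, 9 windows in all, and matches were found for MDM2 and RPS27L alone. MDM2 is shown because it was the gene with more than 1 match: both lie before its inner start sites, at chr12:68809017 and chr12:68809024, where p53 is known to act. The stretch below is chr12:68808903-68809000 of GRCh38.p14, plus strand, with the matched bases in capitals. It is intronic in 7 annotated MDM2 transcripts and holds no exon of the gene in GENCODE release 29.

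MDM2 inner promoter: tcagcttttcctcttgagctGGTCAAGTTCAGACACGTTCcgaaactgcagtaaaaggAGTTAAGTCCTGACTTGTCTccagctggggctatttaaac
RPS27L promoter: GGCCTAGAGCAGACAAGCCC

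The upstream MDM2 match had 2 mismatches to the motif, the downstream one 3, and 18 bases lay between them. RPS27L had 1 match, chr15:63157527-63157546 on the minus strand, with 3 mismatches and its first base 69 bases before the start; it overlaps an exon in 1 of 2 annotated RPS27L transcripts there. The windows before the outer MDM2 starts came no closer than 5 mismatches, and those of GDF15, ACER2 and CYFIP2 no closer than 5, 4 and 4. Of all 35116 RefSeq windows of this length, 0.561% held a match with at most 2 mismatches and 4.36% one with at most 3. A match describes letters only, and sites outside these windows were not searched.

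All 5 genes were higher with mitoxantrone, from 2.37-fold for RPS27L to 4.99-fold for GDF15. Every member passed an adjusted p of 0.05 as higher in edgeR's quasi-likelihood test (Benjamini-Hochberg adjusted), where 56.7% of the listed genes did and 35.3% passed as lower. For every member the 3 mitoxantrone libraries lay above the 3 DMSO libraries, which held for 60.1% of the listed genes. In bulk RNA, more RNA per cell and more cells that express a gene cannot be told apart. Counts below are normalized counts, reads divided by the authors' size factor of the library. Fold changes are the fitted ones, and errors are the SD over 3 libraries or the standard error (SE) of the fitted log2 fold change.

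**Figure D1:**
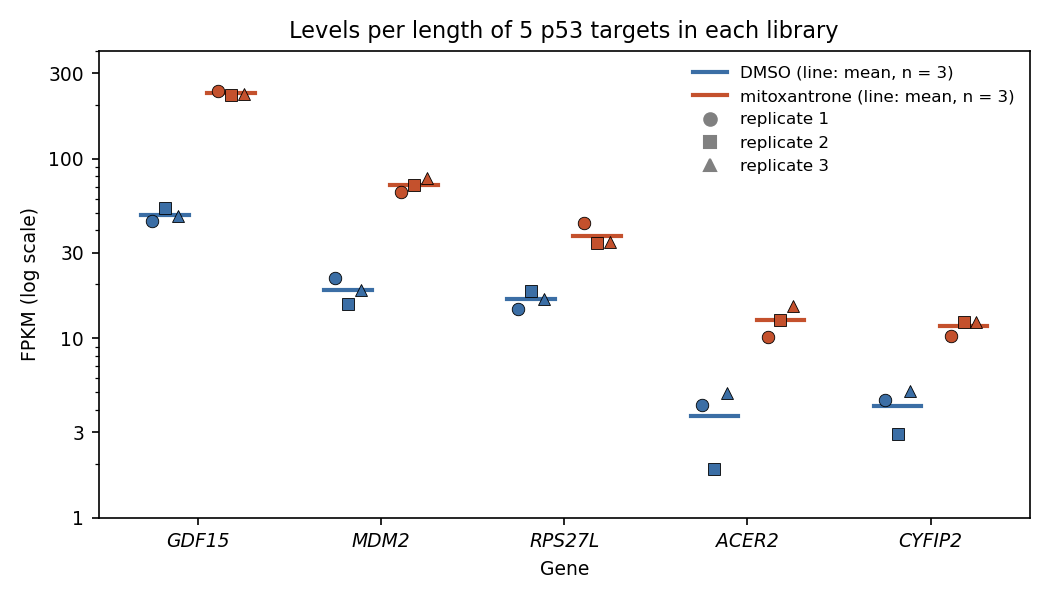
FPKM (reads scaled to gene length and library depth, log axis) of the 5 genes in each library. Each point is 1 library, its shape the replicate number, and lines are group means (n = 3). Mitoxantrone libraries lie above DMSO libraries for every gene, and ACER2 and CYFIP2 have their lowest DMSO value in replicate 2, at 1.87 and 2.93 FPKM.

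MDM2 closes the inhibitory loop of the pathway: p53 raises MDM2, and MDM2 marks p53 for destruction. The gene (ENSG00000135679) is placed by the table on chromosome 12 from 69201956 to 69239214, plus strand, on a build that is not given in the sources used here. Its normalized counts were 2616, 2036 and 2260 with DMSO and 8737, 9397 and 9965 with mitoxantrone. The lowest treated library was 3.34 times the highest control, and neither group had a library far from the others. The means were 2304 ± 293 (SD, n = 3) and 9366 ± 614 (SD, n = 3), a 4.06-fold rise with a log2 fold change of 2.02 (SE 0.15) (adjusted p = 1.8e-07, edgeR's quasi-likelihood test). Without the 2 libraries that stand apart the log2 fold change was 1.99 (SE 0.12). The authors' deposited table gives 1.98 with a standard error of 0.12.

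The 3' end of MDM2 in the table overlaps by 3238 bases the gene CPM, on the opposite strand (chromosome 12, 69235977 to 69365350), which encodes the membrane enzyme carboxypeptidase M. CPM rose from 26.6 ± 6.98 to 144 ± 31.2 normalized counts (SD, n = 3 each), with a log2 fold change of 2.42 (SE 0.24) (adjusted p = 3.9e-06, edgeR's quasi-likelihood test). Whether the libraries kept the strand is not given, so reads of the shared bases cannot be told apart. Far fewer reads were assigned to CPM than to MDM2 in both groups. Of the wider list of feedback regulators of p53, which also holds MDM4, PPM1D, CCNG1, RCHY1 and COP1, MDM2 was the single one of 6 in the table.

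GDF15 encodes a secreted, distant member of the TGF-β family that tissues under stress release and that reduces appetite through the receptor GFRAL. The gene (ENSG00000130513) lies on chromosome 19 from 18485541 to 18499986, plus strand, in the table. Its normalized counts were 1423, 1801 and 1526 with DMSO and 8324, 7751 and 7631 with mitoxantrone. The treated libraries differed little from one another, and the lowest was 4.24 times the highest control, the widest gap of the 5 genes. The means were 1583 ± 196 (SD, n = 3) and 7902 ± 369.8 (SD, n = 3), a 4.99-fold rise with a log2 fold change of 2.32 (SE 0.15) (adjusted p = 4.3e-08, edgeR's quasi-likelihood test). Without the 2 libraries that stand apart the log2 fold change was 2.38.

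GDF15 also responds to the integrated stress response, a programme in which translation slows and the factors ATF4 and DDIT3 act. Of 15 genes of that programme 4 were in the table, and they divided evenly by direction. CHAC1, which breaks down glutathione, had a log2 fold change of 1.48 (SE 0.23), and SESN2, a regulator of growth signalling that p53 also raises, one of 1.21 (SE 0.13). DDIT4, an inhibitor of mTOR signalling, had -1.09 (SE 0.16) and PHGDH, which begins serine synthesis, -1.36 (SE 0.14). All 4 passed in edgeR's quasi-likelihood test, the largest adjusted p being 2.8e-04 for CHAC1. Most listed genes did so, 56.7% as higher and 35.3% as lower. ATF4, DDIT3, ATF3 and TRIB3 were not in the table.

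Of 24 ligands of the TGF-β family and receptors of GDF15, 6 were in the table, 3 higher and 3 lower. INHBA, which encodes the subunit of activin A, rose from 8.24 ± 1.95 to 51.5 ± 11.4 normalized counts (SD, n = 3 each), and NODAL, a ligand of early development, from 2.12 ± 1.29 to 12.6 ± 1.63. INHBB, the subunit of activin B, fell from 1052 ± 141 to 282 ± 8.43 (SD, n = 3 each), and INHA, the inhibin α subunit, from 104 ± 21.7 to 28.1 ± 2.04. All 6 passed in edgeR's quasi-likelihood test, the largest adjusted p being 0.01 for NODAL, where 56.7% of all listed genes passed as higher and 35.3% as lower. Neither GFRAL nor its partner RET was in the table.

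RPS27L encodes a protein closely related to the small-subunit ribosomal protein RPS27, and it is known to bind MDM2. The gene (ENSG00000185088) lies on chromosome 15 from 63418071 to 63450220, minus strand, in the table. Its normalized counts were 892, 1212 and 1015 with DMSO and 2967, 2227 and 2201 with mitoxantrone. The groups did not overlap, the lowest treated library being 1.82 times the highest control, and mitoxantrone replicate 1 lay well above its group. The means were 1040 ± 161 (SD, n = 3) and 2465 ± 435 (SD, n = 3), a 2.37-fold rise with a log2 fold change of 1.25 (SE 0.16) (adjusted p = 4.1e-05, edgeR's quasi-likelihood test). Without the 2 libraries that stand apart it was 1.22, and with library factors computed over the listed genes alone the adjusted p in edgeR was 0.065 (TMM) or 1 (DESeq2). The smallest over 16 alternatives was 6.1e-11, in the DESeq2 Wald test. Reads shared with RPS27 or with processed copies of either gene may have been divided or dropped in counting, so its level is uncertain. None of 83 cytosolic ribosomal protein genes, RPS27 among them, was in the table.

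ACER2 encodes alkaline ceramidase 2, a Golgi enzyme that splits ceramide into sphingosine and a fatty acid. The gene (ENSG00000177076) lies on chromosome 9 from 19408925 to 19452018, plus strand, in the table, and it was the least counted of the 5, with 72 to 216 reads in the DMSO libraries. Its normalized counts were 157, 74.2 and 185 with DMSO and 412, 504 and 589 with mitoxantrone. DMSO replicate 2 was low, and the coefficient of variation of the DMSO libraries, 41.6%, was well above the 7.98% that counting error gives at this depth. The lowest treated library was still 2.22 times the highest control. The means were 139 ± 57.7 (SD, n = 3) and 502 ± 88.9 (SD, n = 3), a 3.59-fold rise with a log2 fold change of 1.84 (SE 0.24) (adjusted p = 5.6e-05, edgeR's quasi-likelihood test). Without the 2 libraries that stand apart the log2 fold change was 1.67 (SE 0.16), and the authors' deposited table gives 1.48 with a standard error of 0.32. Its adjusted p in edgeR was 0.053 with DESeq2 factors over the listed genes, the largest of a range from 7.5e-17 over 16 alternatives.

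Just past the end of ACER2, 1.19 kb downstream on the same strand, the table holds ENSG00000260912 (chromosome 9, 19453207 to 19455171), annotated as a non-coding transcript that overlaps a gene in sense. Its normalized counts were 114, 130 and 131 with DMSO and 415, 406 and 444 with mitoxantrone. DMSO replicate 2 was not low for this transcript, unlike for ACER2, and the SD of the DMSO libraries was 9.36. The log2 fold change was 1.75 (SE 0.14), at an adjusted p of 6.1e-07 by edgeR's quasi-likelihood test, close in size to that of ACER2. Of 34 other genes of ceramide and sphingosine metabolism 2 were in the table, and both were higher. CERS3, a ceramide synthase for very long fatty acids, had a log2 fold change of 1.84 (SE 0.27), and S1PR3, a receptor for sphingosine 1-phosphate, one of 1.61 (SE 0.30). Both were lowly counted, with means of 24.1 ± 8.07 and 15.6 ± 4.43 normalized counts with DMSO (SD, n = 3). The other ceramidases ACER1, ACER3, ASAH1 and ASAH2 and the sphingosine kinases were not in the table.

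CYFIP2 encodes a subunit of the WAVE complex, through which the GTPase RAC1 starts branched actin filaments, and it was described as a p53 target linked to cell death. The gene (ENSG00000055163) lies on chromosome 5 from 156693089 to 156822606, plus strand, in the table. Its normalized counts were 725, 501 and 821 with DMSO and 1816, 2111 and 2058 with mitoxantrone. DMSO replicate 2 was again the lowest library, and the lowest treated library was 2.21 times the highest control. The means were 682 ± 164 (SD, n = 3) and 1995 ± 157 (SD, n = 3), a 2.92-fold rise with a log2 fold change of 1.55 (SE 0.17) (adjusted p = 9.1e-06, edgeR's quasi-likelihood test). Without the 2 libraries that stand apart it was 1.43, and the adjusted p in edgeR was 0.085 with DESeq2 factors over the listed genes. That was the largest over 16 alternatives, and the smallest was 4.6e-15, in the DESeq2 Wald test. None of 20 other genes of the WAVE and Arp2/3 complexes and their partners, the paralog CYFIP1 included, was in the table.

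By FPKM, GDF15 was the highest of the 5 genes in both groups. FPKM here divides by the gene length in the deposited table, which may differ from the length of the transcripts expressed. The order of the genes by FPKM may therefore not be that of their transcript numbers. Its FPKM was 48.7 ± 4.04 with DMSO and 232 ± 6.03 with mitoxantrone (SD, n = 3 each), a mean FPKM over all libraries above that of 98.6% of the listed genes. MDM2 had 18.6 ± 2.99 and 71.7 ± 6.40 FPKM and RPS27L 16.5 ± 1.92 and 37.4 ± 5.78 (SD, n = 3). These 2 genes overlapped with DMSO, where MDM2 libraries ranged from 15.6 to 21.6 and RPS27L libraries from 14.6 to 18.4, and no longer overlapped with mitoxantrone. ACER2, at 3.70 ± 1.63 and 12.7 ± 2.54, and CYFIP2, at 4.20 ± 1.14 and 11.7 ± 1.13 FPKM (SD, n = 3), overlapped in both groups and lay below the other 3.

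Whether the 5 genes rose by different amounts was read from the ratio of their counts within each library, which does not depend on library scaling. There were 10 pairs of genes, and with 3 libraries against 3 the two-sided exact permutation test cannot go below p = 0.1, or 0.2 after Benjamini-Hochberg adjustment over the 10 pairs here. No pair could therefore pass 0.05, and the ratios are given by their sizes. The largest difference was between GDF15 and RPS27L: the log2 ratio of GDF15 to RPS27L was 0.67, 0.57 and 0.59 with DMSO and 1.49, 1.80 and 1.79 with mitoxantrone. The DMSO values were nearly equal and all treated values lay above them. The mean change was 1.08 on the log2 scale, or 2.12 times (exact permutation p = 0.1, adjusted p = 0.2).

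With mitoxantrone the ratio of GDF15 to CYFIP2 was higher by 0.75, of MDM2 to RPS27L by 0.79, of MDM2 to CYFIP2 by 0.45 and of ACER2 to CYFIP2 by 0.37 on the log2 scale, each with groups that did not overlap (exact permutation p = 0.1, adjusted p = 0.2). The gaps were slight for most of these: the MDM2 to RPS27L ratio was 1.55 in the highest DMSO library and 1.56 in the lowest mitoxantrone library. The same 2 values were -2.149 and -2.141 for ACER2 to CYFIP2 and 1.85 and 1.88 for GDF15 to CYFIP2. For MDM2 to CYFIP2 they were 2.02 and 2.15. The difference of ACER2 to CYFIP2 was 0.17 without DMSO replicate 2 and 0.24 without both libraries that stand apart, and that of MDM2 to CYFIP2 was 0.29 without DMSO replicate 3. The other 5 ratios overlapped between the groups. MDM2 to ACER2 changed by 0.09 (exact permutation p = 0.8, adjusted p = 0.8), with an SD of 0.59 among DMSO libraries, so that a difference in the rise of these 2 genes was not detectable against the replicate spread. Without the 2 libraries that stand apart, the change of GDF15 to RPS27L was 1.17 and that of MDM2 to ACER2 was 0.32.

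**Figure D2:**
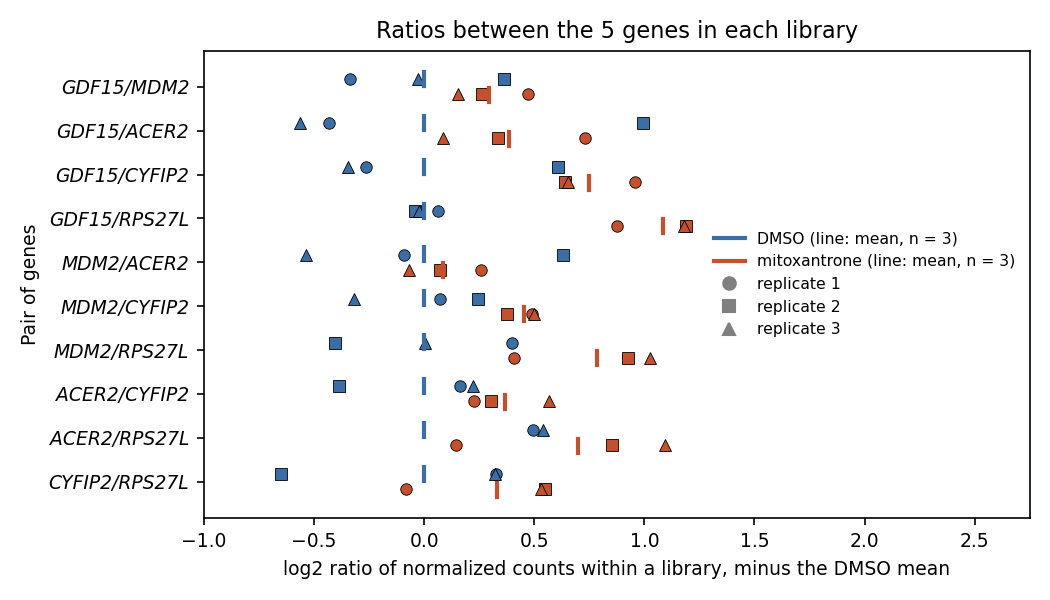
log2 ratio of normalized counts for each pair of the 5 genes within a library, set to 0 at the DMSO mean; each point is 1 library, its shape the replicate number, and lines are group means (n = 3). The GDF15 to RPS27L ratio has the tightest DMSO libraries and a mean change of 1.08, while MDM2 to ACER2 overlaps between the groups.

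Within a group, the 5 genes did not vary together. In DMSO replicate 2, against the mean of the other DMSO libraries, ACER2 differed by -1.19, CYFIP2 by -0.62 and MDM2 by -0.26 on the log2 scale, whereas GDF15 differed by 0.29 and RPS27L by 0.35. In mitoxantrone replicate 1 each gene deviated to the same side as in DMSO replicate 2, ACER2 by -0.40, CYFIP2 by -0.20, MDM2 by -0.15, GDF15 by 0.11 and RPS27L by 0.42. Such agreement was common among the 391 listed genes at or above the median level that were fitted as higher. Of these, 41.4% lay below the other libraries in both cases and 32.7% above them in both. ACER2 lay near the low end in DMSO replicate 2, where 0.459% of the 653 genes had a lower deviation, and RPS27L near the high end in mitoxantrone replicate 1, where 97.2% had a lower one. The part of gene length in these deviations was not tested, and among the 5 genes they did not follow the order of length. In both libraries ACER2 deviated lowest and RPS27L highest, though ACER2 is the shorter of these 2. The gene lengths in the table were 10509 bases for CYFIP2, 8017 for MDM2, 4037 for RPS27L, 2437 for ACER2 and 2087 for GDF15.

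**Figure D3:**
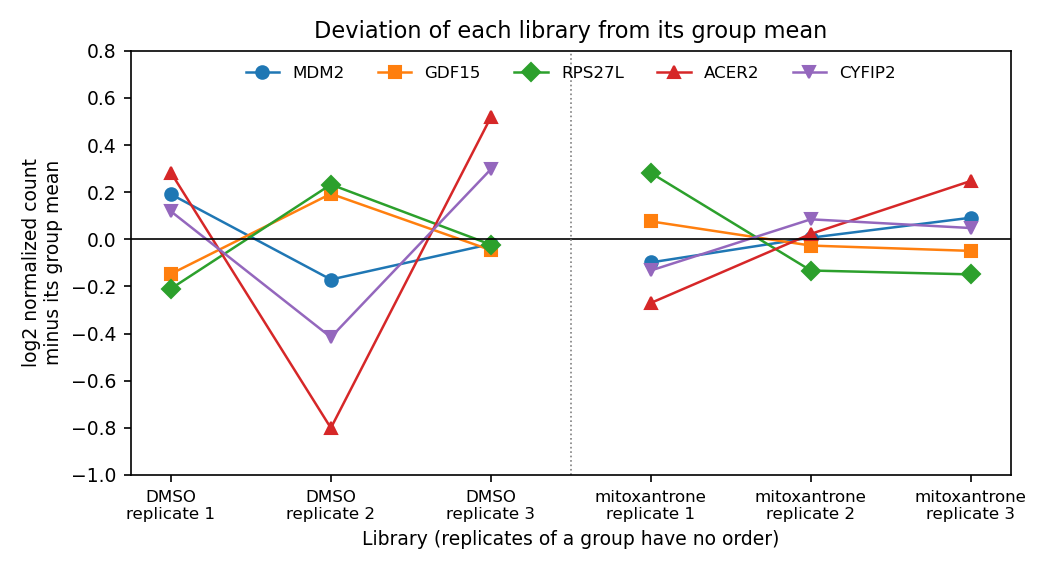
log2 normalized count of each of the 5 genes in each library minus the mean of its group; lines join the points of 1 gene and replicates have no order. ACER2, CYFIP2 and MDM2 lie below their group means in DMSO replicate 2 and mitoxantrone replicate 1, and GDF15 and RPS27L above them.

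The genes with the most similar profile were sought among 600 protein-coding listed genes at or above the median level, by the root mean square difference of centred log2 counts over the 6 libraries. For MDM2 the nearest was EMR2, an adhesion receptor (0.0739). For GDF15 they were CYGB, cytoglobin (0.0536), and DHRS2, a short-chain dehydrogenase (0.0651). RPS27L was nearest to CSTA, the protease inhibitor cystatin A (0.0578), and to TSPAN1, a tetraspanin (0.0701). CYFIP2 was nearest to another gene of the p53 list, TP53INP1 (0.0883), a regulator of autophagy and cell death, and next to KIAA1462 (0.105), a protein of cell junctions. ACER2 had the poorest neighbours, the lipid transporter ABCA1 (0.160) and KIAA1462 (0.192). Among the 5 genes themselves the difference ranged from 0.268 for GDF15 and MDM2 to 0.681 for ACER2 and RPS27L.

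The wider list of p53 targets held 79 genes, of which 38 were in the table. In edgeR's quasi-likelihood test (Benjamini-Hochberg adjusted) 37 of the 38 were called higher and 1 lower, beside 56.7% and 35.3% of all listed genes. Without the 5 genes, 32 of 33 were higher, with a median log2 fold change of 1.31 over the 33, the gene that fell included. The median was 1.26 over all 1305 listed genes and 1.74 over the 793 fitted as higher. The targets outside the table were not analysed here, and the list was compiled with earlier results of these data known, so its count does not stand as independent evidence of direction. GDF15 had the third largest log2 fold change of the 38, MDM2 the seventh, ACER2 the eighth, CYFIP2 the twelfth, and RPS27L rank 24. By the authors' own values ACER2 (1.48, SE 0.32) lay just below CYFIP2 (1.49, SE 0.14). Among the 793 listed genes fitted as higher, GDF15 had rank 233, MDM2 314, ACER2 363, CYFIP2 490 and RPS27L 666. Only 10 of the 37 passed as higher with DESeq2 factors over the listed genes, which move the median log2 fold change of the listed genes by -0.99.

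Among the secreted and surface targets, 7 of 13 were in the table and all 7 passed as higher, with a median log2 fold change of 1.39. Counts by role, here and below, stand beside the 56.7% of all listed genes that passed as higher. Medians by role stand beside 1.74 over the 793 listed genes fitted as higher. After GDF15 came EDA2R, a receptor of the TNF receptor family (2.10, SE 0.18), and TGFA, a ligand of the EGF receptor (1.63, SE 0.14). LIF, a cytokine of the IL6 family, had 1.39 (SE 0.15). EPHA2, a receptor tyrosine kinase, had 1.29 and SERPINB5, known as maspin, 1.17, the smallest of the group.

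All 3 targets grouped as RNA binding, nuclease or ribosomal were in the table and passed as higher. ZMAT3, a zinc finger protein that binds RNA and regulates splicing, had a log2 fold change of 1.64 (SE 0.14) beside the 1.25 (SE 0.16) of RPS27L, a difference that was not tested. AEN, a nuclease linked to apoptosis, had 1.19 (SE 0.13).

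Of the 18 metabolic and lipid targets 10 were in the table, and all passed as higher with a median of 1.22. ACER2 had the largest fold change of the 10 and also the largest SE. TIGAR, listed as C12orf5, which diverts glucose from glycolysis, followed with 1.53 (SE 0.14), and ALOX5, the lipoxygenase that begins leukotriene synthesis, with 1.31 (SE 0.15). GLS2, a glutaminase, had 1.27 (SE 0.13), DGKA, a diacylglycerol kinase, 1.23 and the carboxylesterase CES2 1.17. TP53I3, a quinone reductase, had 1.14, CMBL, a hydrolase, 1.13, and FDXR, which passes electrons to mitochondrial ferredoxin, 1.08 (SE 0.15), the smallest rise of the p53 list. Of the actin genes ACTA2, smooth muscle actin, was in the table beside CYFIP2, with 1.33 (SE 0.15).

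Cell death targets were higher in 6 of 6 listed cases, of 18 on the list, where 56.7% of all listed genes passed as higher. TNFRSF10C, a TRAIL receptor that cannot signal death, had a log2 fold change of 2.51 (SE 0.16), larger than that of any of the 5 genes. FAS, a death receptor, had 1.56 (SE 0.14), TP53INP1 1.40 (SE 0.16), TNFRSF10A, a TRAIL receptor that signals death, 1.33 (SE 0.14), and the decoy receptor TNFRSF10D 1.22 (SE 0.14). PMAIP1, the BH3-only protein NOXA, had 1.14 (SE 0.14). BAX and BBC3, which encodes PUMA, were not in the table.

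Of 6 DNA repair targets 3 were in the table and higher: RRM2B, a subunit of ribonucleotide reductase (1.42, SE 0.14), POLH, the translesion polymerase η (1.18, SE 0.16), and XPC, which recognises damaged DNA (1.16, SE 0.13). The mitochondrial quality factor SPATA18 (2.07, SE 0.15) and the autophagy regulator DRAM1 (1.24, SE 0.13) were higher too. Among 9 arrest targets, CDKN1A had the largest rise of the whole list, 5.87-fold with a log2 fold change of 2.55 (SE 0.15), followed by PLK3, a stress kinase (2.08, SE 0.17), and BTG2, an antiproliferative regulator of mRNA decay (1.41, SE 0.13). GTSE1, a microtubule-bound protein of dividing cells that restrains p53, was the 1 listed target that fell, from 591 ± 2.70 to 274.9 ± 19.4 normalized counts (SD, n = 3 each). Of 15 partners and regulators of p53 only CDKN2A was in the table; it encodes p16 and the MDM2 inhibitor ARF, and its counts fell from 435 ± 67.6 to 156 ± 13.2 (SD, n = 3 each), at an adjusted p of 7.4e-06 by edgeR's quasi-likelihood test. Counts per gene do not divide p16 from ARF.

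**Figure D4:**
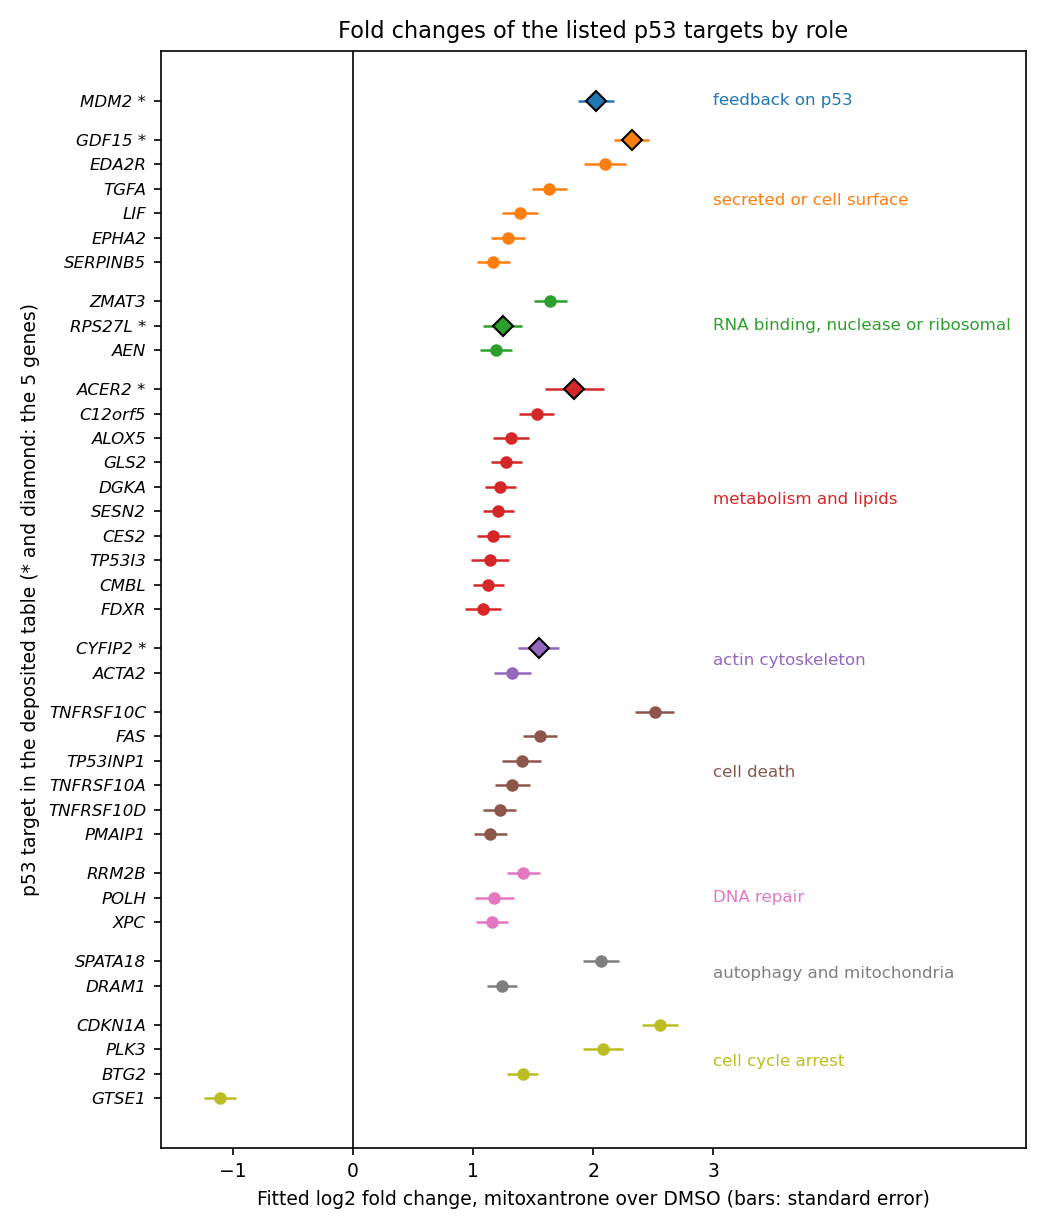
Fitted log2 fold change of mitoxantrone over DMSO for 37 of the 38 p53 targets in the table, by role; bars are standard errors, and diamonds and asterisks mark the 5 genes. All lie above 1 except GTSE1 at -1.10, and GDF15, MDM2 and ACER2 are in the upper part of the list. The authors' selection leaves out genes with an absolute log2 fold change under 1.0.

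Around the other genes, the table held PDE4C, a phosphodiesterase, 119 kb from GDF15, with a log2 fold change of 2.08 (SE 0.60) (adjusted p = 0.048, edgeR's quasi-likelihood test) on means of 4.97 and 21.1 normalized counts. It also held CA12, a carbonic anhydrase, 163 kb from RPS27L, with 1.26 (SE 0.37) and an adjusted p of 0.057 in the same edgeR test, which did not pass. No listed gene lay within 500 kb of CYFIP2.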

How the data were processed

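The members and gene lists were chosen with earlier results of these data known. Per the labels' protocols, RNA of 6 NCI-H292 samples was read from both ends over 150 bases. The submitters' processing notes list HISAT2 2.0.1, cutadapt 1.9.1, DESeq2, Cufflinks 2.2.1 and HTSeq 0.6.1. Not given in the sources used here: the genome build, the strand setting and which RNA enrichment was used. Per the file headers, the deposited table holds raw read counts and FPKM per library, the mean normalized count (a signal value scaled by the authors), the authors' log2 fold change with its error, a Wald score, and a p-value before and after adjustment. Columns used in no step numbered 0.

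Size factors (0.884 to 1.167) were solved from the deposited counts and mean normalized counts, with a largest relative error of 5.0e-10. Library totals were solved from the deposited FPKM, counts and lengths, and 100% of FPKM values were given back. No 2 libraries of a group agreed within sampling noise (chi-square per gene 2.74 to 27.9). Counts of all 1305 genes were tested for treatment with edgeR 4.0.16 (limma 3.58.1, R 4.3.3), the solved factors and no filter. Benjamini-Hochberg adjustment used 18310 tests, the number that the authors' adjusted p-values imply, with ranks among the listed genes only. Calls used an adjusted p of 0.05. Standard errors are the log2 fold change over the root of the F statistic, and the test was tested on simulated data. Pair ratios used exact permutation tests (scipy 1.17.1). The p53 list was compiled by role, and named genes are the members, the listed genes of the p53 list, the 2 nearest profiles per member, listed genes within 500 kb, and of each other list all listed genes, or the 2 highest and 2 lowest fold changes where more than 5 were listed. Sequences are from RefSeq (GRCh38.p14). The table's coordinates matched those of GENCODE release 29 for 3 of 1267 shared gene IDs, so the 2 sets of coordinates were never combined. Intervals of counting error assume independent reads. Alternatives were other library factors, tests, filters and pseudocounts, a replicate block, and leaving out libraries. Some genes that the rule names are not reported here.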

Additional observations from a re-analysis of the deposited data

How the results depend on the processing

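Over 16 alternatives MDM2 and GDF15 passed as higher in each, ACER2 and CYFIP2 in 15 and RPS27L in 14, and no log2 fold change of the 5 genes changed sign. Library factors computed over the listed genes alone treat most of these selected genes as unchanged, and they moved the median of all listed genes by -0.69 (TMM) and -0.99 (DESeq2) on the log2 scale. With the DESeq2 factors 2 members passed, ACER2 had a log2 fold change of 0.85, CYFIP2 0.56 and RPS27L 0.26, 10 p53 targets passed as higher, and 219 listed genes were higher against 512 lower. With TMM RPS27L had 0.56, and 366 were higher against 512 lower, where the main result was 740 against 461. Leaving out 1 library gave log2 fold changes of 1.94 to 2.12 for MDM2, 2.25 to 2.42 for GDF15, 1.09 to 1.37 for RPS27L, 1.55 to 2.10 for ACER2 and 1.37 to 1.70 for CYFIP2. The MDM2 to ACER2 ratio turned to -0.18 without DMSO replicate 3 and was 0.40 without DMSO replicate 2. Leaving out DMSO replicate 2 and mitoxantrone replicate 1 together was chosen after seeing the data, and it ended no call of a member. Samples share only a replicate number: deviations of same-numbered libraries correlated at -0.46, -0.27 and 0.23 over 653 genes. The highest correlation across the groups, 0.60, was between DMSO replicate 2 and mitoxantrone replicate 1, which the replicate block does not pair. With that block 5 members and 736 listed genes passed as higher. ACER2 had the fewest reads of the 5 genes, 72 in its lowest library. The coefficient of variation of its DMSO libraries, 41.6%, was above the 7.98% that counting error gives.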
